A study of Naumovozyma castellii with 24 samples.

Results

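Most of the genes described here make amino acids from central metabolites or take up inorganic sulfur into methionine and cysteine in the budding yeast Naumovozyma castellii. The rest include genes of aromatic amino acid breakdown and regulators of these pathways. All were chosen by name: every gene whose symbol in the RefSeq annotation table began with LYS, HIS, ILV, TRP, ARO, HOM, THR, MET or CYS and a digit, with HIS7 left out. This gave 59 of the 5648 genes counted. By pathway there were 8 lysine genes, 6 histidine genes, 4 isoleucine and valine genes and 5 tryptophan genes. There were 5 genes of the shared aromatic route and 4 genes of aromatic amino acid breakdown. From aspartate to threonine there were 5 genes, and from sulfate to sulfide 6 genes. A further 2 were sirohaem genes, 8 were genes of homocysteine, methionine and cysteine, and 5 were regulators of sulfur genes. MET18 was placed in none of these pathways. No row carried the symbols LYS20 or ILV2, which were not analysed here.

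As background from Saccharomyces cerevisiae, the source of every gene role given below, the aspartate branch leads through homoserine to threonine, isoleucine and methionine, and the shikimate route leads to chorismate, from which tryptophan, tyrosine and phenylalanine are made. Sulfate is activated, reduced to sulfide by a sulfite reductase that carries sirohaem and iron-sulfur centres, and joined to O-acetylhomoserine to give homocysteine. Many biosynthetic genes answer to the general amino acid control factor Gcn4, and the sulfur genes answer to the activator Met4 with its DNA-binding partners.

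RNA was sequenced from 24 cultures of N. castellii in 10 groups, all of strain background DBP004 and all grown in rich medium (YPD). In the deletion experiment, strains with the genotypes rox1-/-, rox2-/- and rox1/rox2-/- and the wild type (WT) were grown for a final 2 h with 0.6 mM CoCl2 or without it. CoCl2 is a salt widely used to mimic low oxygen. The starting A600, a measure of cell density, was 1 in this experiment. There were 2 libraries each of rox1 CoCl2, rox1, rox2 CoCl2, rox1/rox2 CoCl2, rox1/rox2 and WT CoCl2, and 3 each of rox2 and WT. In the oxygen experiment, WT cells were grown for 6 h at 1% oxygen (hypoxia, 3 libraries) or at 21% oxygen (normoxia, 3 libraries). Their starting A600 was 0.2. Rox1 is known in S. cerevisiae as a repressor of hypoxic genes, and the labels give no further detail on the deleted alleles or on how many clones of each strain were used.

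Levels are given as CPM, a gene's counts scaled to the total gene counts of its library, with TMM. Log2 fold changes with their standard errors (SE) and adjusted p-values come from edgeR's quasi-likelihood test, adjusted by Benjamini-Hochberg across the whole table, and a gene was called at an adjusted p under 0.05. Total gene counts per library ran between 5585196 and 12738873 in the deletion experiment and between 11993105 and 12181501 in the oxygen experiment, and all 59 genes passed the filter on low counts in both. The ROX1 gene had 0 or 1 counts in each library of the rox1 and rox1/rox2 strains and 107 to 392 counts in the rox2 and WT libraries of the same experiment; no row carried the symbol ROX2. Reads outside genes came to 4.52% to 19.9% of the reads counted inside or outside genes in the deletion experiment, with the highest shares in rox2 CoCl2 replicate 1 (19.9%) and rox2 replicate 3 (14.5%). Reads not placed uniquely came to 17.3 to 42.8 per 100 gene counts there, and to 0 in the oxygen experiment. They were highest in rox1 CoCl2 (37.7 and 42.8), against 28.8 to 30.1 in rox1 and 23.8 to 24.4 in WT CoCl2. Their part in the results was not tested. The series' design calls the replicates biological; in such bulk samples, fewer cells that express a gene and less RNA per cell cannot be told apart.

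In hypoxia, 9 of the 59 genes fell and 0 rose, against 3.85% of all tested genes that fell and 2.64% that rose. The 9 were HOM3, HOM2 and THR1 of the aspartate branch, ARO3 and ARO1 of the shared aromatic route, the aminotransferase gene ARO8, LYS21, ILV1 and CYS4. All the changes were small, with log2 fold changes between -0.41 and -0.18. Of the rises, 1 gene passed an unadjusted p under 0.05 and DESeq2 called 0. The median log2 fold change over the 59 genes was -0.08, against 0.00 over all tested genes. In 20 genes every hypoxia library lay below every normoxia library, against 13.8% of all tested genes, and in 3 genes every hypoxia library lay above, against 13.7%.

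All 5 genes of the aspartate branch were lower in each hypoxia library than in any normoxia library. HOM3, the aspartate kinase gene, had 129, 126 and 121 CPM in hypoxia, against 170.4, 164 and 167 CPM in normoxia, a log2 fold change of -0.41 ± 0.05 (SE; adjusted p = 0.000756). HOM2, which encodes aspartate semialdehyde dehydrogenase, had 146, 152 and 155 CPM in hypoxia and 183, 165 and 192 CPM in normoxia (-0.25 ± 0.06; adjusted p = 0.0415). THR1, the homoserine kinase gene, had 219, 215 and 221 CPM in hypoxia and 255, 269 and 257 CPM in normoxia (-0.25 ± 0.05; adjusted p = 0.0119). Each of these genes was lower in all 3 hypoxia libraries. HOM6, the homoserine dehydrogenase gene, and THR4, the threonine synthase gene, had log2 fold changes of -0.23 ± 0.06 and -0.15 ± 0.05, but missed the threshold (adjusted p = 0.0523 and 0.0828). ILV1, whose threonine deaminase passes threonine on to isoleucine, had 113, 114 and 115 CPM in hypoxia and 132, 129 and 142 CPM in normoxia (-0.24 ± 0.05; adjusted p = 0.0281).

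**Figure D1:**
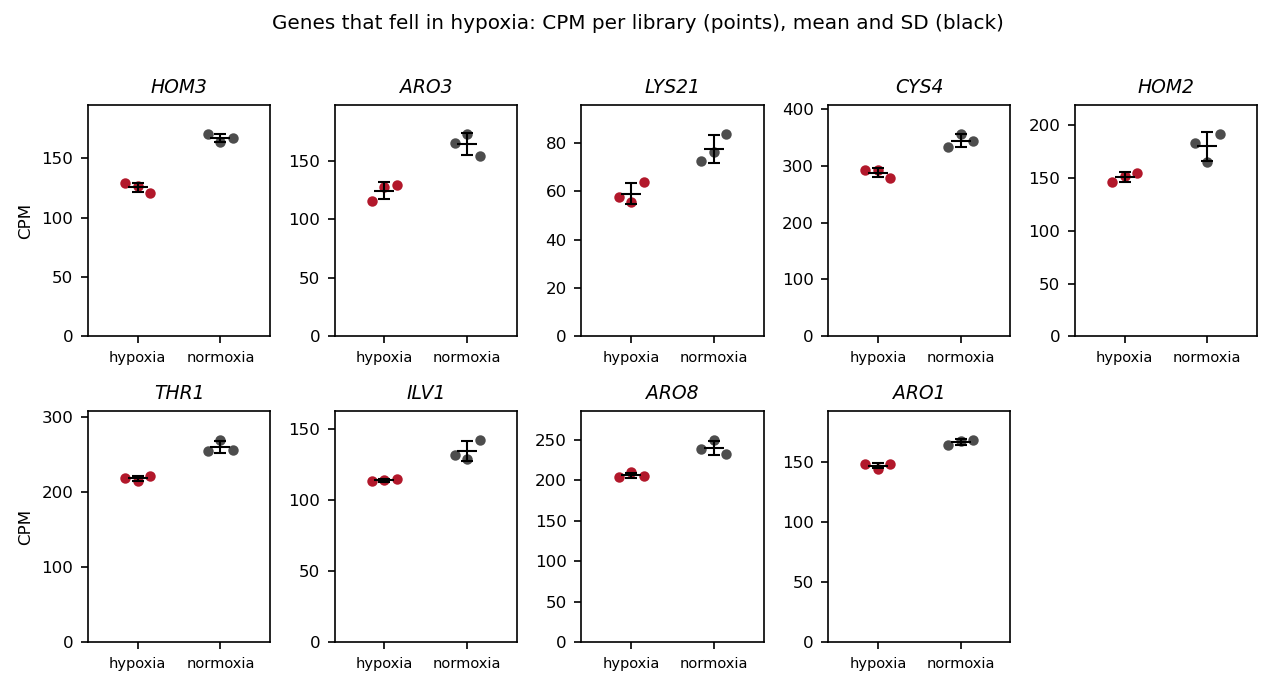
CPM (vertical axis, from 0) of the 9 genes that fell in hypoxia, in WT cells in hypoxia (red) and normoxia (grey). Points are libraries and black marks the mean and SD of 3; in each panel all red points lie below all grey points.

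ARO3, which encodes one of the enzymes that start the shikimate route, had 116, 128 and 129 CPM in hypoxia, against 165, 173 and 155 CPM in normoxia (-0.40 ± 0.06; adjusted p = 0.00401). Its counterpart ARO4 had 592, 613 and 596 CPM in hypoxia and 639, 646 and 664 CPM in normoxia and missed the threshold (-0.11 ± 0.05; adjusted p = 0.182). ARO1, whose product carries out the middle steps of the route, had 148, 144 and 148 CPM in hypoxia and 163, 168 and 168 CPM in normoxia (-0.18 ± 0.04; adjusted p = 0.0416). The groups did not overlap in any of these genes. ARO8, an aromatic aminotransferase gene, had 204, 210.0 and 205 CPM in hypoxia and 239, 249.7 and 233 CPM in normoxia (-0.22 ± 0.05; adjusted p = 0.0265). In the tryptophan branch none of the 5 genes was called, and TRP5, the tryptophan synthase gene, had the lowest value (-0.18 ± 0.05; adjusted p = 0.0516).

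LYS21, whose homocitrate synthase takes the first step towards lysine, had 57.6, 55.5 and 63.8 CPM in hypoxia and 72.6, 76.2 and 83.7 CPM in normoxia (-0.39 ± 0.08; adjusted p = 0.0143). The other 7 lysine genes were not called, and their log2 fold changes lay between -0.18 (LYS12) and 0.04 (LYS14). Among the 21 sulfur and sirohaem genes and sulfur regulators, CYS4 was the one that was called. CYS4, which encodes the cystathionine beta-synthase that starts the path from homocysteine to cysteine, had 293, 292 and 279 CPM in hypoxia and 334, 356 and 343 CPM in normoxia (-0.26 ± 0.05; adjusted p = 0.0131). Both LYS21 and CYS4 had every hypoxia library below every normoxia library. MET10, a sulfite reductase subunit gene, had 61.8, 62.0 and 59.8 CPM in hypoxia and 53.7, 56.8 and 55.5 CPM in normoxia, with no overlap, and a log2 fold change of 0.15 ± 0.06 that missed the threshold (adjusted p = 0.176).

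In the oxygen experiment HIS4 and HIS1 varied between replicates, and their highest libraries had the same number in both groups. HIS4, whose product catalyses several steps of the pathway, had 103, 116 and 166 CPM in hypoxia replicates 1, 2 and 3, against 138, 136 and 232 CPM in normoxia replicates 1, 2 and 3. HIS1, the gene of the first enzyme, had 113, 126 and 182 CPM in hypoxia and 157, 149 and 224 CPM in normoxia. Replicate 3 was the highest library of its group for both genes in both conditions. The highest library was 1.60 times the lowest for HIS4 in hypoxia and 1.71 times in normoxia, against medians over all tested genes of 1.11 in hypoxia and 1.12 in normoxia; the ratios were 1.52 in hypoxia and 1.80 in normoxia for MET2, and 1.46 and 1.79 for ARO9. Without the replicate number in the fit, neither HIS4 (-0.39 ± 0.22; adjusted p = 0.332) nor HIS1 (-0.33 ± 0.19; adjusted p = 0.336) was called. With the replicate number as a block, 15 of the 59 genes fell in hypoxia, against 7.9% of all tested genes, whose falls numbered 439 in place of 214 without the block. The 15 were the 9 and HIS4 (-0.38 ± 0.06; adjusted p = 0.00169), HIS1 (-0.34 ± 0.05; adjusted p = 0.00258), HOM6 (adjusted p = 0.0105), ILV6 (adjusted p = 0.0288), TRP5 (adjusted p = 0.0289) and ILV5 (adjusted p = 0.0437).

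The number of genes called lower in hypoxia depended on single libraries. It was 4 without hypoxia replicate 1, 3 without hypoxia replicate 2, 4 without hypoxia replicate 3, 5 without normoxia replicate 1, 10 without normoxia replicate 2 and 7 without normoxia replicate 3. Over all tested genes, calls in either direction numbered 361 with every library. They numbered 193, 194 and 235 without hypoxia replicate 1, 2 or 3. Without normoxia replicate 1, 2 or 3 they numbered 169, 411 and 348. HOM3 and ARO3 were called in each of these fits, with log2 fold changes between -0.43 and -0.38 for HOM3 and between -0.44 and -0.36 for ARO3. THR1 was lost without hypoxia replicate 2 (-0.24; adjusted p = 0.0651), and CYS4 was lost without hypoxia replicate 2 (adjusted p = 0.0514) or hypoxia replicate 3 (adjusted p = 0.0557). LYS21 was lost without hypoxia replicate 1 (adjusted p = 0.0644) or hypoxia replicate 2 (adjusted p = 0.0675). ILV1, HOM2 and ARO8 each lost the call in 5 of the 6 fits, and ARO1 in all 6. None of these fits held the replicate block. With the block and every library, the edgeR adjusted p was 0.0114 for ILV1, 0.0118 for HOM2, 0.00968 for ARO8 and 0.0232 for ARO1. ARO1 was also not called with DESeq2 or under total counts.

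CoCl2 was followed by larger and more mixed changes. It raised 8 of the 59 genes and lowered 0 in the rox1 strain, against 4.85% of all tested genes that rose and 3.21% that fell. In the rox2 strain 11 rose and 17 fell, against 26.3% and 21.8%, and in the rox1/rox2 strain 5 rose and 1 fell, against 4.38% and 1.41%. In WT 13 rose and 19 fell, against 27.7% and 19.4% of all tested genes. In the rox1 strain 5 genes were lower at an unadjusted p under 0.05, and DESeq2 called 2 lower. The median log2 fold change over the 59 genes was 0.02 in rox1, -0.26 in rox2, -0.15 in rox1/rox2 and -0.29 in WT, against all-gene medians of 0.04, -0.01, 0.00 and 0.00. In WT, as the heat map of fold changes by pathway shows, 4 of the 8 genes of homocysteine, methionine and cysteine rose and 2 fell, 3 of the 8 lysine genes rose and 1 fell, and 2 of the 4 genes of aromatic breakdown rose. In the shared aromatic route and in the tryptophan branch 3 of 5 genes fell and none rose in WT, and of the 6 histidine genes 2 fell and none rose.

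**Figure D2:**
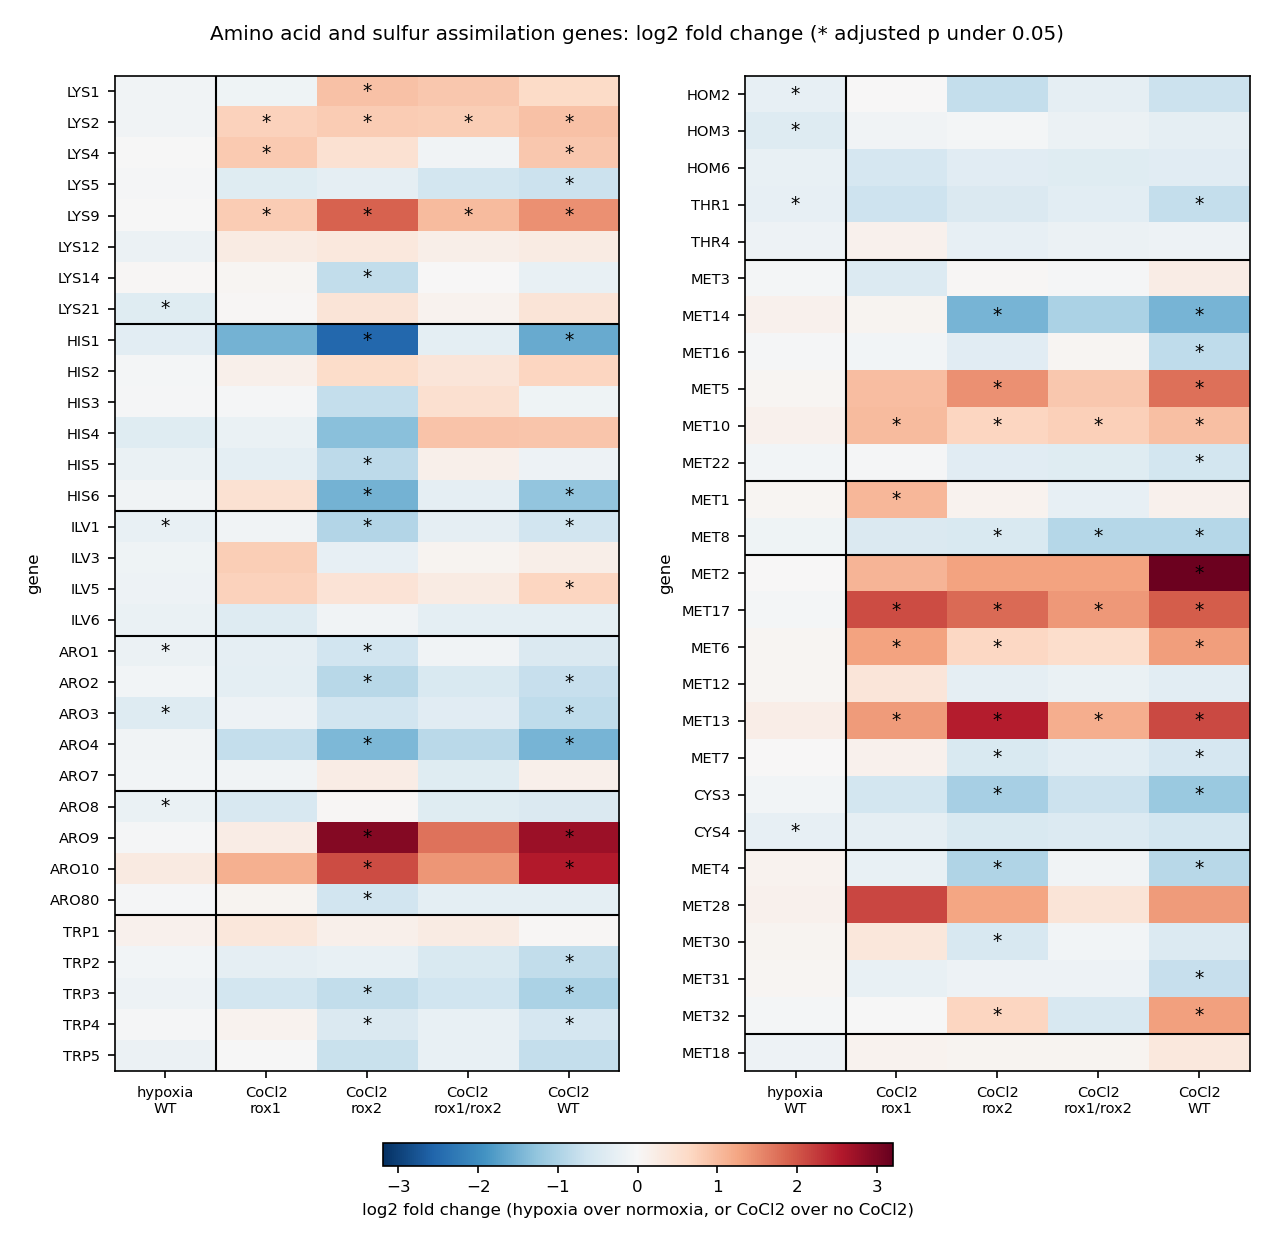
Log2 fold change (colour; red higher and blue lower in hypoxia or with CoCl2) of the 59 genes in hypoxia over normoxia in WT and with CoCl2 over without it in the rox1, rox2, rox1/rox2 and WT strains. Horizontal lines separate pathways and asterisks mark an adjusted p under 0.05; LYS2, LYS9, MET10, MET13 and MET17 carry asterisks in red in all 4 CoCl2 columns.

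LYS2, LYS9, MET10, MET13 and MET17 rose with CoCl2 in all 4 strains, which is 8.47% of the 59 genes, against 134 of the 5544 tested genes (2.42%). No member fell in all 4 strains, against 37 of all tested genes (0.667%), and no member rose in one strain and fell in another. MET6 rose in 3 strains and MET8 fell in 3 strains. At the other end, 20 of the 59 genes were called in no strain (33.9%, against 37.4% of all tested genes), among them the aspartate branch genes HOM2, HOM3, HOM6 and THR4. All 5 calls shared by the 4 strains rested on the rox1/rox2 libraries: 0 genes were called in that strain without rox1/rox2 replicate 1, 1 without rox1/rox2 replicate 2 (MET13), 3 without rox1/rox2 CoCl2 replicate 1 (LYS9, MET10 and MET13) and 4 without rox1/rox2 CoCl2 replicate 2 (LYS9 and MET13 higher, MET8 and TRP2 lower).

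MET17, which encodes the sulfhydrylase that joins sulfide to O-acetylhomoserine, rose in every strain. It had 23.9 and 38.0 CPM in rox1 CoCl2, against 8.53 and 6.20 CPM in rox1, and 26.9 and 12.7 CPM in rox2 CoCl2, against 4.28, 6.93 and 5.57 CPM in rox2. It had 29.1 and 26.3 CPM in rox1/rox2 CoCl2, against 10.6 and 10.5 CPM in rox1/rox2, and 29.2 and 17.8 CPM in WT CoCl2, against 6.61, 5.32 and 6.54 CPM in WT. Within each strain every CoCl2 library was above every library without CoCl2, and the CoCl2 pair of rox1/rox2 lay closer together than those of rox1, rox2 and WT. The log2 fold changes were 2.08 ± 0.36 (SE; adjusted p = 0.003) in rox1, 1.81 ± 0.33 (adjusted p = 0.000764) in rox2, 1.40 ± 0.35 (adjusted p = 0.0331) in rox1/rox2 and 1.94 ± 0.32 (adjusted p = 0.000279) in WT. Without any one of the 4 rox1/rox2 libraries the call in that strain was lost, with log2 fold changes between 1.32 and 1.47 and adjusted p up to 0.232.

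MET13, a methylenetetrahydrofolate reductase gene whose product supplies the methyl group for methionine, had 22.2 and 25.1 CPM in rox1 CoCl2, against 10.3 and 8.09 CPM in rox1. It had 49.3 and 41.8 CPM in rox2 CoCl2, against 8.38, 7.16 and 8.45 CPM in rox2, and 32.0 and 30.6 CPM in rox1/rox2 CoCl2, against 12.5 and 15.6 CPM in rox1/rox2. In WT it had 43.7 and 35.8 CPM with CoCl2 and 11.1, 8.70 and 7.81 CPM without. The groups did not overlap in any strain. The log2 fold changes were 1.37 ± 0.20 (adjusted p = 0.00109) in rox1, 2.51 ± 0.18 (adjusted p = 6.18e-07) in rox2, 1.15 ± 0.20 (adjusted p = 0.0048) in rox1/rox2 and 2.11 ± 0.18 (adjusted p = 1.48e-06) in WT; the call in rox1/rox2 was lost without rox1/rox2 replicate 1 (adjusted p = 0.113). The second gene of this kind, MET12, was called in no strain, with log2 fold changes of 0.40 in rox1, -0.30 in rox2, -0.21 in rox1/rox2 and -0.33 in WT.

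MET6, the methionine synthase gene, had 45.4 and 74.4 CPM in rox1 CoCl2, against 26.5 and 22.7 CPM in rox1, and 52.0 and 50.1 CPM in WT CoCl2, against 19.2, 21.2 and 19.8 CPM in WT. Its log2 fold changes were 1.29 ± 0.24 (adjusted p = 0.00419) in rox1, 0.65 ± 0.22 (adjusted p = 0.0228) in rox2 and 1.35 ± 0.21 (adjusted p = 0.000207) in WT, and 0.57 ± 0.24 in rox1/rox2, where it missed the threshold (adjusted p = 0.161). Every CoCl2 library was above every untreated one in each strain, and the rox2 call was lost without rox2 CoCl2 replicate 1 (adjusted p = 0.15) or rox2 replicate 3 (adjusted p = 0.062). MET2, whose acetyltransferase makes O-acetylhomoserine, was sparsely counted, with 53 and 9 counts in WT CoCl2, against 5, 2 and 4 counts in WT. Its log2 fold change in WT was 3.15 ± 0.64 (adjusted p = 0.0014), and 1.82 (adjusted p = 0.111) without WT CoCl2 replicate 1. It was not called in rox1 (1.09 ± 0.69), rox2 (1.28 ± 0.65) or rox1/rox2 (1.30 ± 0.68).

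On the path from homocysteine to cysteine, CYS3 fell in rox2 and WT. CYS3, the cystathionine gamma-lyase gene, had 238 and 431 CPM in rox2 CoCl2, against 724, 877 and 491 CPM in rox2, and 244 and 495 CPM in WT CoCl2, against 848, 846 and 839 CPM in WT. It fell in rox2 (-1.06 ± 0.37; adjusted p = 0.0312) and in WT (-1.19 ± 0.38; adjusted p = 0.0183), with no overlap, and in both the first CoCl2 library was the lower one. Without WT CoCl2 replicate 1 the WT log2 fold change was -0.77 (adjusted p = 0.213), and without rox2 CoCl2 replicate 1 that in rox2 was -0.70 (adjusted p = 0.261); the rox2 call was also lost without rox2 replicate 1 (adjusted p = 0.069) or rox2 replicate 2 (adjusted p = 0.0964). CYS3 was not called in rox1 (-0.58 ± 0.40) or rox1/rox2 (-0.69 ± 0.40), and CYS4 was called in no strain, with log2 fold changes between -0.60 in WT and -0.28 in rox1. MET7, which encodes a folylpolyglutamate synthetase, fell in rox2 (-0.48 ± 0.16; adjusted p = 0.0248) and WT (-0.54 ± 0.16; adjusted p = 0.0138), and both calls were lost when libraries were scaled by total counts (-0.26 in rox2 and -0.29 in WT). Its rox2 call was also lost without rox2 replicate 1 (adjusted p = 0.0733) or rox2 CoCl2 replicate 1 (adjusted p = 0.257), and its WT call without WT CoCl2 replicate 2 (adjusted p = 0.0878).

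Among the 6 genes from sulfate to sulfide, both sulfite reductase subunits rose, MET10 in every strain and MET5 in rox2 and WT. MET10, the subunit that binds flavin, had 109 and 96.8 CPM in rox1 CoCl2, against 47.2 and 55.3 CPM in rox1, and 62.5 and 73.2 CPM in rox2 CoCl2, against 40.5, 45.1 and 41.9 CPM in rox2. It had 64.4 and 88.5 CPM in rox1/rox2 CoCl2, against 43.6 and 46.5 CPM in rox1/rox2, and 85.1 and 89.5 CPM in WT CoCl2, against 46.8, 43.7 and 43.2 CPM in WT. The groups did not overlap in any strain. The log2 fold changes were 1.00 ± 0.16 (adjusted p = 0.0016) in rox1, 0.68 ± 0.14 (adjusted p = 0.00185) in rox2, 0.76 ± 0.16 (adjusted p = 0.014) in rox1/rox2 and 0.97 ± 0.14 (adjusted p = 0.000112) in WT. The rox1/rox2 call was lost without rox1/rox2 replicate 1 (adjusted p = 0.165), rox1/rox2 replicate 2 (adjusted p = 0.105) or rox1/rox2 CoCl2 replicate 2 (adjusted p = 0.0659).

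**Figure D3:**
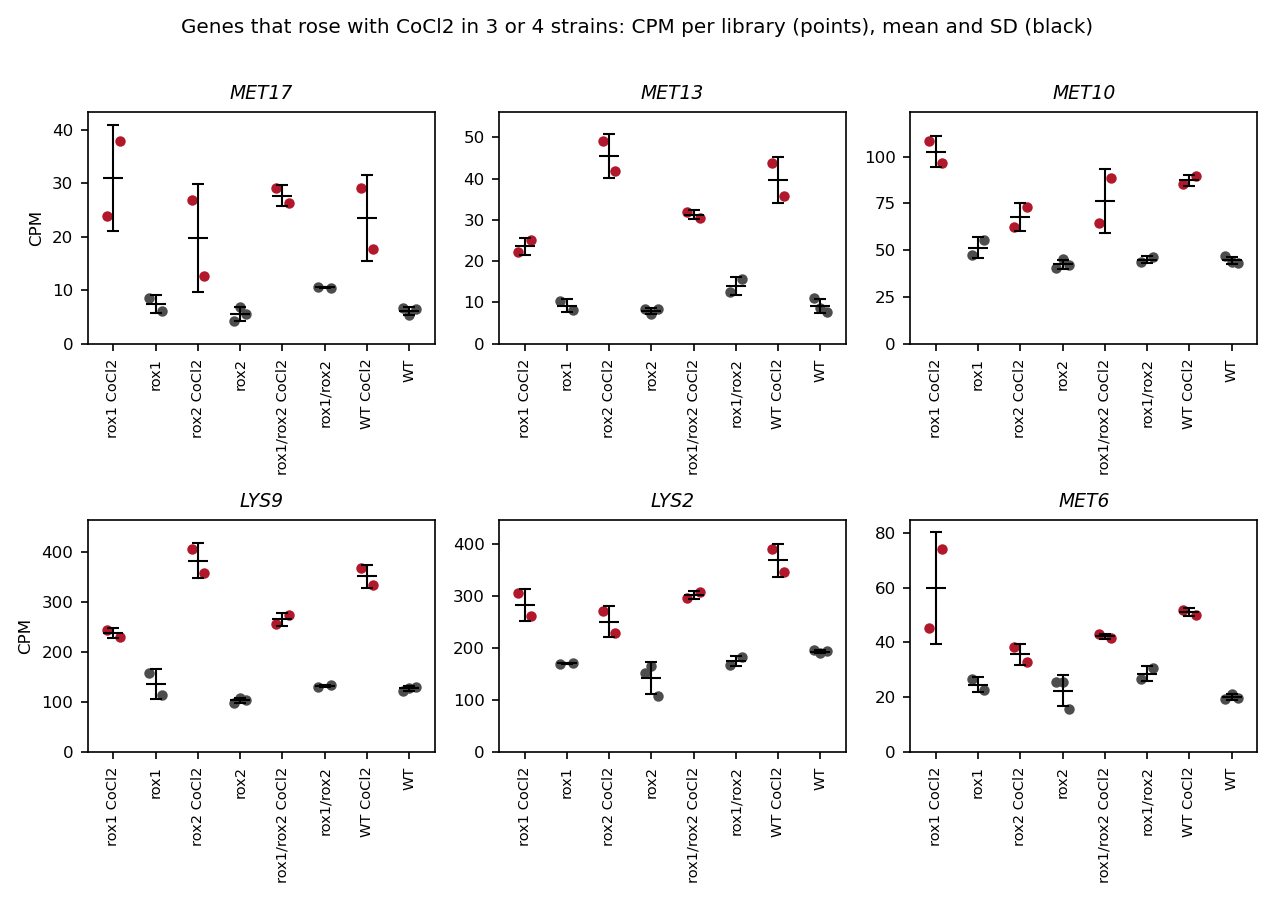
CPM (vertical axis, from 0) of 6 genes that rose with CoCl2 in at least 3 strains, with CoCl2 (red) and without it (grey) in the rox1, rox2, rox1/rox2 and WT strains. Points are libraries and black marks the mean and SD of 2 or 3; the red points lie above the grey points of the same strain in every panel.

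MET5, the sirohaem-bearing subunit of sulfite reductase, had 31.2 and 14.5 CPM in rox2 CoCl2, against 6.89, 9.55 and 8.27 CPM in rox2, and 44.9 and 16.0 CPM in WT CoCl2, against 7.46, 8.96 and 10.8 CPM in WT. The first CoCl2 library was far above the second in both strains, and neither pair overlapped its untreated group. MET5 rose in rox2 (1.46 ± 0.40; adjusted p = 0.00871) and WT (1.76 ± 0.38; adjusted p = 0.00204); without rox2 CoCl2 replicate 1 the value was 0.82 (adjusted p = 0.181), and without WT CoCl2 replicate 1 it was 0.82 (adjusted p = 0.131). MET3, which encodes the ATP sulfurylase that activates sulfate, was called in no strain, with log2 fold changes of -0.43 ± 0.24 in rox1, 0.03 ± 0.23 in rox2, -0.04 ± 0.25 in rox1/rox2 and 0.23 ± 0.22 in WT. MET14, the gene of the kinase that acts next, had 2 and 8 counts in rox2 CoCl2, against 15, 14 and 10 in rox2, and 7 and 6 counts in WT CoCl2, against 21, 26 and 19 in WT. MET14 fell in rox2 (-1.49 ± 0.57; adjusted p = 0.0426) and WT (-1.50 ± 0.52; adjusted p = 0.0276) at these low counts. The WT call was lost without WT replicate 2 (adjusted p = 0.0657), WT CoCl2 replicate 1 (adjusted p = 0.204) or WT CoCl2 replicate 2 (adjusted p = 0.0554), and the rox2 call without any one of the 5 libraries. Under total counts MET14 was called in neither strain (adjusted p = 0.0671 in rox2 and 0.0524 in WT).

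MET16, the reductase that turns activated sulfate into sulfite, fell in WT, with 17.0 and 12.6 CPM in WT CoCl2, against 23.9, 29.6 and 25.5 CPM in WT (-0.82 ± 0.22; adjusted p = 0.007). It was not called in rox1 (-0.08 ± 0.23), rox2 (-0.35 ± 0.21) or rox1/rox2 (0.06 ± 0.23), and the WT call was lost without WT CoCl2 replicate 2 (adjusted p = 0.0634). MET22, whose phosphatase clears a by-product of sulfate reduction, fell in WT (-0.60 ± 0.21; adjusted p = 0.0319), a call lost without WT CoCl2 replicate 1 (-0.48; adjusted p = 0.229) and under total counts (-0.37). Of the sirohaem genes, MET8 fell in 3 strains and MET1 rose in rox1. MET8, which encodes the enzyme that inserts iron into sirohaem, had 78.9 and 93.7 CPM in rox1/rox2 CoCl2, against 166 and 156 CPM in rox1/rox2, and 80.1 and 106 CPM in WT CoCl2, against 175, 180.2 and 173 CPM in WT. It fell in rox2 (-0.49 ± 0.20; adjusted p = 0.04996), rox1/rox2 (-0.90 ± 0.21; adjusted p = 0.0237) and WT (-0.92 ± 0.20; adjusted p = 0.00203), with a log2 fold change of -0.45 ± 0.21 in rox1. MET1, which encodes the methyltransferase that starts the sirohaem branch, had 17.2 and 20.3 CPM in rox1 CoCl2, against 9.04 and 8.81 CPM in rox1, and rose there (1.07 ± 0.23; adjusted p = 0.0113), while it was not called in rox2 (0.11 ± 0.22), rox1/rox2 (-0.27 ± 0.24) or WT (0.14 ± 0.22).

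The calls of these sirohaem genes rested on single libraries except that of MET8 in WT. MET1 in rox1 was lost without rox1 replicate 1 (adjusted p = 0.0819) or rox1 CoCl2 replicate 2 (adjusted p = 0.0714). MET8 in rox1/rox2 was lost without rox1/rox2 replicate 1 (adjusted p = 0.193), rox1/rox2 replicate 2 (adjusted p = 0.121) or rox1/rox2 CoCl2 replicate 1 (adjusted p = 0.207). MET8 in rox2 was lost without any one rox2 library (adjusted p = 0.126, 0.0726 and 0.054), without rox2 CoCl2 replicate 1 (adjusted p = 0.524), under total counts (-0.28) and without the filter on low counts (adjusted p = 0.0501).

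Of the 5 sulfur regulators, MET32 rose in WT, and MET4 and MET31 fell. MET32, which encodes a zinc-finger partner of Met4, had 5.59 and 8.38 CPM in rox2 CoCl2, against 4.0, 5.34 and 3.77 CPM in rox2, and 8.32 and 9.99 CPM in WT CoCl2, against 4.15, 3.73 and 3.16 CPM in WT. It rose in WT (1.30 ± 0.26; adjusted p = 0.00126) and in rox2 (0.68 ± 0.27; adjusted p = 0.0495), where the call was lost without rox2 replicate 1 (adjusted p = 0.128), rox2 replicate 3 (adjusted p = 0.0956) or rox2 CoCl2 replicate 2 (adjusted p = 0.412), and without both rox2 libraries with the most reads outside genes (adjusted p = 0.0504). Its relative MET31 fell in WT (-0.73 ± 0.17; adjusted p = 0.00374), but not without WT CoCl2 replicate 1 (adjusted p = 0.088). MET4, the activator gene, had 23.2 and 32.6 CPM in rox2 CoCl2, against 57.9, 50.6 and 55.0 CPM in rox2, and 27.9 and 34.5 CPM in WT CoCl2, against 53.7, 61.4 and 57.9 CPM in WT. The CoCl2 libraries were below the untreated ones in both strains, and MET4 fell in rox2 (-0.96 ± 0.18; adjusted p = 0.000999) and WT (-0.89 ± 0.18; adjusted p = 0.00131). In rox1 and rox1/rox2 its log2 fold changes were -0.23 ± 0.19 and -0.10 ± 0.19, and neither was called. MET30, whose F-box protein restrains Met4, fell in rox2 (-0.52 ± 0.19; adjusted p = 0.0381), a call lost under total counts (-0.30) and without rox2 replicate 1 (adjusted p = 0.0955), rox2 replicate 2 (adjusted p = 0.144) or rox2 CoCl2 replicate 1 (adjusted p = 0.303). MET28, another partner of Met4, was called in no strain at 12 and 42 counts in rox1 CoCl2, against 2 and 9 in rox1, and 10 and 5 counts in WT CoCl2, against 5, 2 and 3 in WT.

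In the lysine pathway LYS9 and LYS2 rose in every strain. LYS9, the saccharopine dehydrogenase gene of the next-to-last step, had 245 and 231 CPM in rox1 CoCl2, against 157 and 115 CPM in rox1, and 408 and 359 CPM in rox2 CoCl2, against 97.7, 109 and 103 CPM in rox2. It had 256 and 275 CPM in rox1/rox2 CoCl2, against 130.0 and 134 CPM in rox1/rox2, and 369 and 335 CPM in WT CoCl2, against 122, 128 and 130.5 CPM in WT. The groups did not overlap in any strain. The log2 fold changes were 0.81 ± 0.16 (adjusted p = 0.00656) in rox1, 1.89 ± 0.14 (adjusted p = 1.01e-06) in rox2, 1.01 ± 0.16 (adjusted p = 0.00311) in rox1/rox2 and 1.47 ± 0.14 (adjusted p = 5.81e-06) in WT. LYS9 was lost in rox1 without rox1 CoCl2 replicate 1 (adjusted p = 0.0509) and in rox1/rox2 without rox1/rox2 replicate 1 (adjusted p = 0.0664) or rox1/rox2 replicate 2 (adjusted p = 0.0515).

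LYS2, the aminoadipate reductase gene, had 304 and 260.3 CPM in rox1 CoCl2, against 169 and 171 CPM in rox1, and 391 and 346 CPM in WT CoCl2, against 195, 189 and 194 CPM in WT. It rose by a log2 fold change of 0.73 ± 0.19 (adjusted p = 0.0294) in rox1, 0.82 ± 0.17 (adjusted p = 0.00176) in rox2, 0.79 ± 0.19 (adjusted p = 0.0254) in rox1/rox2 and 0.94 ± 0.17 (adjusted p = 0.000588) in WT, with no overlap in any strain. Its call was kept in each fit that left out 1 library in rox2 and WT; it was lost in rox1 without rox1 replicate 1 (adjusted p = 0.224), rox1 replicate 2 (adjusted p = 0.0792) or rox1 CoCl2 replicate 1 (adjusted p = 0.191), and in rox1/rox2 without any one of its 4 libraries (adjusted p up to 0.239). LYS5, which encodes the enzyme that activates Lys2, fell in WT (-0.69 ± 0.20; adjusted p = 0.012), a call lost without WT CoCl2 replicate 1 (adjusted p = 0.115) and under total counts (-0.45), and it was not called in rox1 (-0.38 ± 0.21), rox2 (-0.30 ± 0.20) or rox1/rox2 (-0.59 ± 0.22).

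LYS4, the gene of the iron-sulfur enzyme homoaconitase, had 248 and 157 CPM in rox1 CoCl2, against 106 and 121 CPM in rox1, and 62.4 and 67.0 CPM in rox1/rox2 CoCl2, against 65.1 and 74.0 CPM in rox1/rox2. In WT it had 185 and 219 CPM with CoCl2 and 101, 114 and 118 CPM without. The CoCl2 libraries were above the untreated ones in rox1 and WT, while the rox1/rox2 groups overlapped. LYS4 rose in rox1 (0.84 ± 0.23; adjusted p = 0.0373) and WT (0.86 ± 0.20; adjusted p = 0.00371) and was not called in rox2 (0.48 ± 0.21; adjusted p = 0.0671) or rox1/rox2 (-0.10 ± 0.23; adjusted p = 0.798). The rox1 call was lost without rox1 replicate 1 (adjusted p = 0.322), rox1 replicate 2 (adjusted p = 0.0554) or rox1 CoCl2 replicate 1 (adjusted p = 0.363). In rox2, LYS1, the last gene of the pathway, rose (0.95 ± 0.25; adjusted p = 0.00698), with 30.8 and 17.5 CPM in rox2 CoCl2, against 13.0, 13.3 and 10.6 CPM in rox2, and was not called without rox2 CoCl2 replicate 1 (adjusted p = 0.172). LYS14, the activator gene of the pathway, fell in rox2 (-0.78 ± 0.16; adjusted p = 0.00172), where it had 48.0 and 67.5 CPM with CoCl2 and 112, 91.7 and 94.5 CPM without.

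In rox2 and WT, genes of aromatic synthesis fell, while ARO9 and ARO10 of aromatic breakdown rose. ARO4, the second gene for the entry enzyme, had 267 and 529 CPM in rox2 CoCl2, against 1250.2, 1174 and 837 CPM in rox2, and 241 and 543 CPM in WT CoCl2, against 1069.7, 1135 and 1076 CPM in WT. The first CoCl2 library was the lower one in both strains, and all CoCl2 libraries were below the untreated ones. ARO4 fell in rox2 (-1.45 ± 0.40; adjusted p = 0.00911) and WT (-1.48 ± 0.40; adjusted p = 0.00821) and had log2 fold changes of -0.75 ± 0.42 in rox1 and -0.85 ± 0.42 in rox1/rox2, which were not called. ARO2, the chorismate synthase gene, fell in rox2 (-0.89 ± 0.23; adjusted p = 0.00643) and WT (-0.73 ± 0.23; adjusted p = 0.0175), ARO3 fell in WT (-0.81 ± 0.25; adjusted p = 0.0166) and ARO1 fell in rox2 (-0.61 ± 0.21; adjusted p = 0.0289). ARO7, the chorismate mutase gene that leads to tyrosine and phenylalanine, was called in no strain.

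These calls in the shared aromatic route were lost when single libraries were left out. Without WT CoCl2 replicate 1 the log2 fold changes in WT were -1.01 for ARO4 (adjusted p = 0.114), -0.45 for ARO2 (adjusted p = 0.228) and -0.48 for ARO3 (adjusted p = 0.229). Without rox2 CoCl2 replicate 1 those in rox2 were -1.04 for ARO4 (adjusted p = 0.116) and -0.65 for ARO2 (adjusted p = 0.0939). ARO1 lost its call in rox2 under total counts (-0.36) and without rox2 replicate 1 (adjusted p = 0.123), rox2 replicate 2 (adjusted p = 0.0952), rox2 CoCl2 replicate 1 (adjusted p = 0.146) or rox2 CoCl2 replicate 2 (adjusted p = 0.0623).

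In the tryptophan branch, TRP3, which encodes part of anthranilate synthase, had 99.6 and 170.1 CPM in rox2 CoCl2, against 225, 234 and 242 CPM in rox2, and 95.3 and 151 CPM in WT CoCl2, against 253, 257 and 234 CPM in WT. It fell in rox2 (-0.79 ± 0.26; adjusted p = 0.0206) and WT (-1.01 ± 0.26; adjusted p = 0.00573), with no overlap. TRP4, the anthranilate phosphoribosyltransferase gene, fell in rox2 (-0.46 ± 0.15; adjusted p = 0.0216) and WT (-0.55 ± 0.15; adjusted p = 0.00857), and TRP2, the partner of TRP3, fell in WT (-0.79 ± 0.26; adjusted p = 0.0211). TRP1 and TRP5 were called in no strain. Without WT CoCl2 replicate 1 no tryptophan gene was called in WT (adjusted p = 0.0985 for TRP3, 0.0654 for TRP4 and 0.265 for TRP2), and without rox2 CoCl2 replicate 1 TRP3 and TRP4 were not called in rox2 (adjusted p = 0.238 and 0.3). TRP4 was also lost under total counts in both strains (-0.23 in rox2 and -0.30 in WT), and in rox2 without rox2 replicate 1 (adjusted p = 0.0789) or rox2 replicate 2 (adjusted p = 0.0622).

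**Figure D4:**
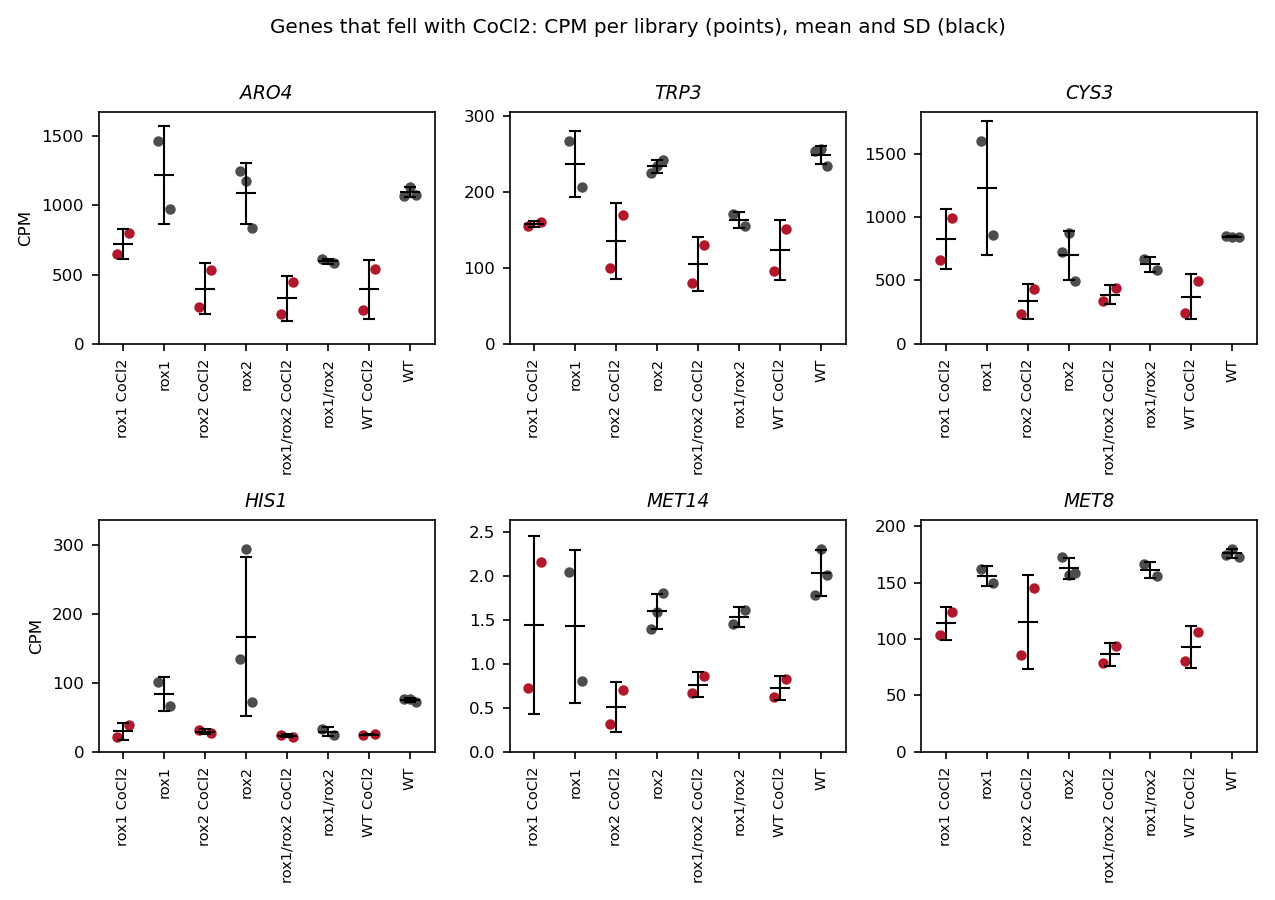
CPM (vertical axis, from 0) of 6 genes that fell with CoCl2 in at least 2 strains, with CoCl2 (red) and without it (grey) in the rox1, rox2, rox1/rox2 and WT strains. Points are libraries and black marks the mean and SD of 2 or 3; in rox2 and in WT the red points of each gene lie below all grey points.

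ARO9, an aromatic aminotransferase gene of the breakdown path, had 16.7 and 11 CPM in rox1 CoCl2, against 11.6 and 11.7 CPM in rox1, and 36.5 and 21.9 CPM in rox2 CoCl2, against 1.30, 5.91 and 4.49 CPM in rox2. It had 23.9 and 16.2 CPM in rox1/rox2 CoCl2, against 6.34 and 5.81 CPM in rox1/rox2, and 33.4 and 19.0 CPM in WT CoCl2, against 5.08, 2.84 and 3.80 CPM in WT. The rox1 groups overlapped, and in the other strains every CoCl2 library was above every untreated one. ARO9 rose in rox2 (2.93 ± 0.45; adjusted p = 0.000199) and WT (2.75 ± 0.43; adjusted p = 0.000213) and was not called in rox1 (0.24 ± 0.46; adjusted p = 0.812) or rox1/rox2 (1.73 ± 0.50; adjusted p = 0.0563). ARO10, the decarboxylase gene that acts next in breakdown, had 21.0 and 11.1 CPM in rox2 CoCl2, against 3.26, 3.98 and 3.95 CPM in rox2, and 22.2 and 11.9 CPM in WT CoCl2, against 3.39, 2.40 and 3.06 CPM in WT. It rose in rox2 (2.09 ± 0.38; adjusted p = 0.000723) and WT (2.54 ± 0.37; adjusted p = 0.000131) and was not called in rox1 (1.13 ± 0.43) or rox1/rox2 (1.42 ± 0.42). Both genes kept their calls in rox2 and WT in each fit that left out 1 library. ARO80, which encodes the activator of ARO9 and ARO10, fell in rox2 (-0.62 ± 0.15; adjusted p = 0.00437), with 31.4 and 29.7 CPM with CoCl2 and 50.7, 52.5 and 37.0 CPM without, and this call was lost under total counts (-0.38).

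HIS1 had 32.2 and 26.6 CPM in rox2 CoCl2, against 134, 296 and 72.6 CPM in rox2, and 24.1 and 25.6 CPM in WT CoCl2, against 77.4, 76.8 and 72.5 CPM in WT. It fell in rox2 (-2.52 ± 0.46; adjusted p = 0.000761) and WT (-1.60 ± 0.44; adjusted p = 0.0095), and without WT CoCl2 replicate 1 the WT value was -1.56 (adjusted p = 0.076). HIS6, which encodes an isomerase of the pathway, had 7.93 and 8.38 CPM in rox2 CoCl2, against 20.4, 33.3 and 15.8 CPM in rox2, and 8.58 and 7.25 CPM in WT CoCl2, against 18.1, 18.8 and 20.3 CPM in WT. Neither gene overlapped between the groups, and HIS6 fell in rox2 (-1.51 ± 0.30; adjusted p = 0.00121) and WT (-1.26 ± 0.29; adjusted p = 0.00341). HIS5, the aminotransferase gene, fell in rox2 (-0.84 ± 0.24; adjusted p = 0.0107), a call lost under total counts (-0.59) and without rox2 CoCl2 replicate 2 (adjusted p = 0.0657). HIS2, HIS3 and HIS4 were called in no strain, and HIS4 had 91.2 and 32.0 CPM in WT CoCl2, against 35.3, 30.2 and 34.7 CPM in WT, with the first CoCl2 library far above the second.

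In the isoleucine and valine pathway, ILV1 had 84.1 and 112 CPM in rox2 CoCl2, against 198, 197 and 170.4 CPM in rox2, and 107 and 159.7 CPM in WT CoCl2, against 204, 216 and 189 CPM in WT. It fell in rox2 (-0.94 ± 0.21; adjusted p = 0.00235) and WT (-0.61 ± 0.20; adjusted p = 0.0238), with no overlap; the WT call was lost without WT CoCl2 replicate 1 (-0.35; adjusted p = 0.294) and under total counts (-0.39). ILV5, the reductoisomerase gene, rose in WT (0.68 ± 0.20; adjusted p = 0.0132), where it had 647 and 749 CPM with CoCl2 and 433, 451 and 426 CPM without, and this call was lost without WT replicate 1 (adjusted p = 0.053), WT replicate 3 (adjusted p = 0.0526) or WT CoCl2 replicate 2 (adjusted p = 0.0728). ILV3, which encodes the iron-sulfur enzyme of the pathway, and ILV6 were called in no strain. In the aspartate branch THR1 was the called gene, in WT (-0.76 ± 0.27; adjusted p = 0.0304), and the call was lost without WT replicate 2 (adjusted p = 0.0502) or WT CoCl2 replicate 1 (-0.43; adjusted p = 0.322). MET18, a factor of iron-sulfur cluster assembly in the cytosol, was called in no strain.

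Of the 9 genes that fell in hypoxia, ARO3, ILV1 and THR1 also fell with CoCl2 in WT, which is 33.3% of the genes lower in hypoxia and 15.8% of the 19 lower with CoCl2, and none of the 9 rose with CoCl2. All 3 CoCl2 calls were lost without WT CoCl2 replicate 1 (adjusted p = 0.229 for ARO3, 0.294 for ILV1 and 0.322 for THR1). Over all genes, 23 of the 214 that fell in hypoxia also fell with CoCl2 in WT (10.7% of the hypoxia list and 2.14% of the CoCl2 list), and 105 rose with CoCl2. Whatever they did in hypoxia, 19 of the 59 genes fell with CoCl2 in WT, and 19.4% of all tested genes did. The 3 of 9 is therefore near the share over the 59. HOM3, the gene with the lowest fold change in hypoxia among the 59, had a log2 fold change of -0.29 ± 0.12 (adjusted p = 0.0679) with CoCl2 in WT.

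The split of the CoCl2 calls depended on how libraries were scaled and on 1 library in each of WT and rox2. Scaling by total counts moved the median log2 fold change of all genes to 0.21 in rox1, 0.22 in rox2, 0.14 in rox1/rox2 and 0.25 in WT. The calls were then 16 higher and 9 lower in rox2, in place of 11 and 17, and 18 higher and 13 lower in WT, in place of 13 and 19. Without rox2 CoCl2 replicate 1, whose reads outside genes came to 19.9%, 9 genes rose and 7 fell in rox2, and without WT CoCl2 replicate 1, 11 rose and 5 fell in WT. Without both rox2 libraries with the most reads outside genes (rox2 CoCl2 replicate 1 and rox2 replicate 3) 9 genes rose and 10 fell in rox2, and the rises of MET5, MET6, MET32 and LYS1 and the falls of MET7, MET8, MET14, MET30, CYS3, ARO2, ARO4, TRP3 and TRP4 were not called there. Reads outside genes came to about 7.89% in each WT CoCl2 library, against 4.87% to 5.19% in WT; their part in the result was not tested. In rox1, 5 genes were called without rox1 replicate 1, all higher, and 12 without rox1 replicate 2, 7 higher and 5 lower. None of the genes called with CoCl2 changed sign under any alternative tried. Over all tested genes, too, fewer were called without rox2 CoCl2 replicate 1 in rox2 and without WT CoCl2 replicate 1 in WT. The same held in rox1/rox2 without rox1/rox2 replicate 1 or rox1/rox2 replicate 2.

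Without CoCl2, no deletion strain differed from WT by edgeR in any of the 59 genes, against 0.0541% of all tested genes called for rox1, 0.0722% for rox2 and 0.108% for rox1/rox2. At an unadjusted p under 0.05 there were 3 genes for rox1, 8 for rox2 and 15 for rox1/rox2, and DESeq2 called 0 in each. In rox1 these were ARO9 (1.57 ± 0.44), HIS6 (-0.75 ± 0.28) and LYS1 (0.54 ± 0.24). In rox2 HIS1, HIS3, HIS4 and HIS5 had values above 0. LYS2 (-0.44 ± 0.15), LYS4 (-0.41 ± 0.19), LYS9 (-0.30 ± 0.13) and HOM3 (-0.29 ± 0.11) had values below 0 there. All 8 lysine genes had values below 0 in rox2, against 40 of the 59 genes and 2596 of the 5544 tested genes. All 5 tryptophan genes also had values below 0, and all 6 histidine genes had values above 0. In 6 of the lysine genes every rox2 library lay below every WT library, against 13 of the 59 and 652 of the 5544. In rox1/rox2 4 of the 15 had values above 0, all of the methionine and sirohaem genes (MET1, MET6, MET13 and MET17), and 11 had values below 0, among them HIS1 (-1.37 ± 0.44; adjusted p = 0.183) and LYS4 (-0.68 ± 0.21; adjusted p = 0.179). Scaling by total counts moved the median of all genes in this comparison to 0.28, against 0.02 with TMM. Leaving out rox1 replicate 2 gave a call for MET3 in rox1 (0.86), and leaving out rox2 replicate 3 gave a call for HIS3 in rox2 (1.12).

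The rox2 libraries without CoCl2 differed among themselves in the histidine genes and in some others. HIS4 had 71.4, 222 and 25.2 CPM in rox2 replicates 1, 2 and 3, against 35.3, 30.2 and 34.7 CPM in WT, and HIS1 had 134, 296 and 72.6 CPM in rox2, against 77.4, 76.8 and 72.5 CPM in WT. HIS3 had 105, 193 and 54.8 CPM in rox2, against 69.5, 67.6 and 69.9 CPM in WT. In all these genes the second rox2 library was the highest and the third was within or below the WT range. The highest rox2 library was 8.84 times the lowest for HIS4, 4.07 times for HIS1, 3.52 times for HIS3, 2.11 times for HIS6, 2.10 times for HIS5 and 1.99 times for HIS2, against a median of 1.31 over all tested genes in rox2. Outside the histidine genes this ratio in rox2 was 4.54 for ARO9, 4.07 for MET28, 1.93 for MET2, 1.89 for ARO7 and 1.83 for TRP5. Its median over the genes described here was 1.33 in rox2. In WT the same ratio was 1.17 for HIS4 and 1.07 for HIS1, against a median of 1.11 over all tested genes. For ARO9 and MET28 it was 1.79 and 2.39 in WT. The log2 fold changes of rox2 against WT were 1.68 ± 0.60 for HIS4 (adjusted p = 0.489) and 1.15 ± 0.37 for HIS1 (adjusted p = 0.372).

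With CoCl2, the rox1 strain differed from WT in 9 of the 59 genes, 6 higher and 3 lower, against 4.65% of all tested genes higher and 12.9% lower. Sulfur regulators made up 4 of the 9. MET32 had 4.22 and 2.69 CPM in rox1 CoCl2, against 8.32 and 9.99 CPM in WT CoCl2 (-1.40 ± 0.30; adjusted p = 0.00771). MET4 had 59.0 and 54.7 CPM in rox1 CoCl2, against 27.9 and 34.5 CPM in WT CoCl2 (0.87 ± 0.19; adjusted p = 0.00979). MET30 had 161 and 157 CPM in rox1 CoCl2 and 69.6 and 105 CPM in WT CoCl2 (0.87 ± 0.21; adjusted p = 0.0136). None of these groups overlapped, with MET32 lower and MET4 and MET30 higher in the deletion strain. MET31 was higher in rox1 CoCl2 (0.58 ± 0.19; adjusted p = 0.0473).

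MET1 had 17.2 and 20.3 CPM in rox1 CoCl2, against 8.67 and 9.99 CPM in WT CoCl2 (1.01 ± 0.23; adjusted p = 0.0115). MET16 had 24.5 and 30.7 CPM in rox1 CoCl2 and 17.0 and 12.6 CPM in WT CoCl2 (0.89 ± 0.23; adjusted p = 0.0196), and HIS6 had 15.1 and 16.3 CPM in rox1 CoCl2 and 8.58 and 7.25 CPM in WT CoCl2 (0.98 ± 0.31; adjusted p = 0.0451). The rox1 libraries were the higher ones in these genes, with no overlap. MET13 (-0.75 ± 0.19; adjusted p = 0.0169) and LYS9 (-0.57 ± 0.16; adjusted p = 0.0274) were lower in rox1 CoCl2 than in WT CoCl2, and both are genes that rose with CoCl2 in each strain. The count of 9 was 0 without rox1 CoCl2 replicate 2, 2 without WT CoCl2 replicate 1 (MET16 and MET32), 14 without WT CoCl2 replicate 2, where HIS6 and MET16 were lost, and 14 with DESeq2. Without rox1 CoCl2 replicate 1 LYS9, MET13, HIS6 and MET31 were lost, and HIS6 and MET31 were also lost under total counts (0.87 and 0.50). None of the 9 was called in every alternative, and none changed sign. Over all tested genes, too, fewer were called without rox1 CoCl2 replicate 2 or without WT CoCl2 replicate 1.

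**Figure D5:**
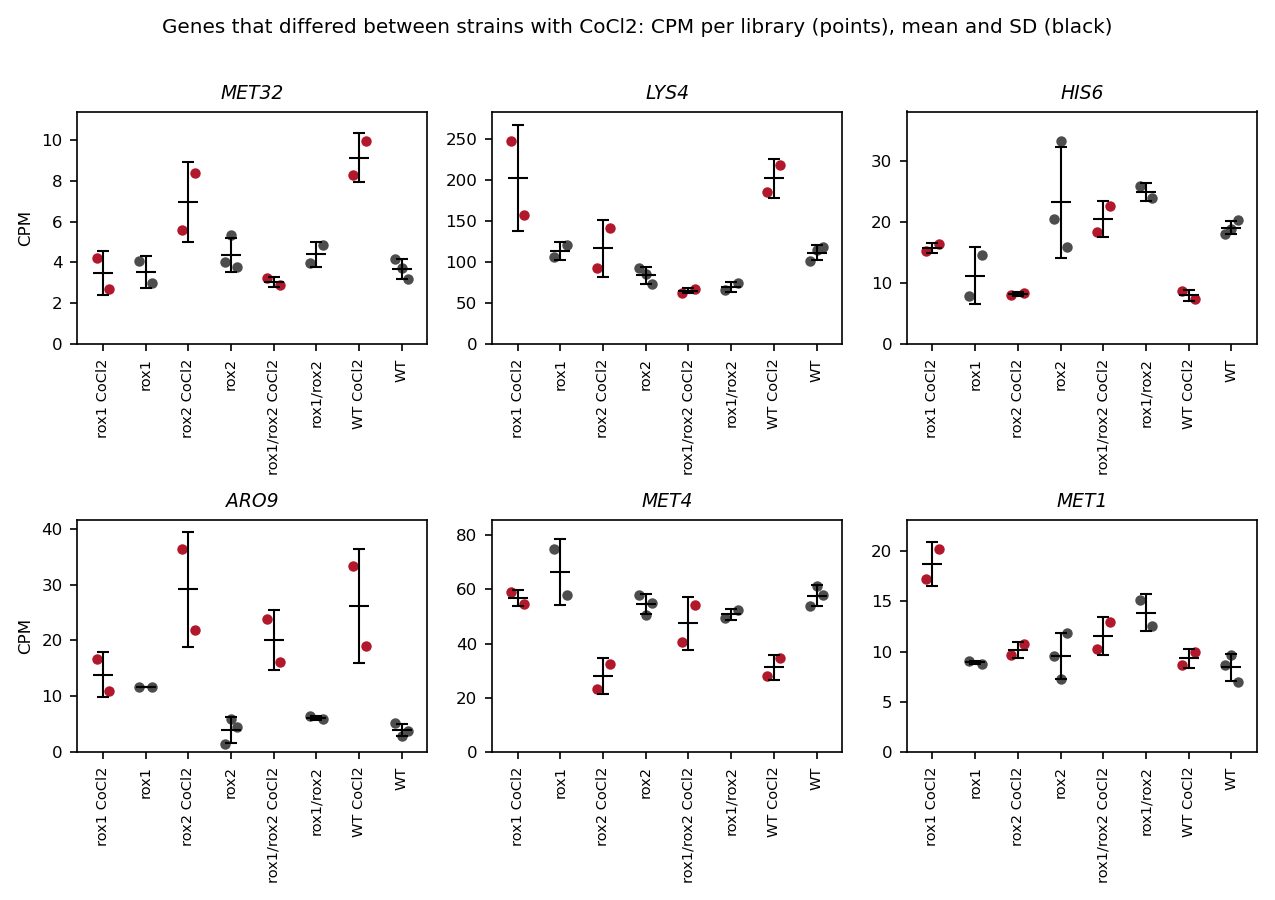
CPM (vertical axis, from 0) of 6 genes that differed between strains with CoCl2 or in their CoCl2 response, with CoCl2 (red) and without it (grey) in the rox1, rox2, rox1/rox2 and WT strains. Points are libraries and black marks the mean and SD of 2 or 3; MET32 lies at 8.32 and 9.99 CPM in WT CoCl2 and below these values in rox1 CoCl2 and rox1/rox2 CoCl2.

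With CoCl2, rox1/rox2 differed from WT in 3 genes, against 1.24% of all tested genes higher and 3.77% lower. LYS4 had 62.4 and 67.0 CPM in rox1/rox2 CoCl2, against 185 and 219 CPM in WT CoCl2 (-1.64 ± 0.23; adjusted p = 0.00153), and it was called in each alternative. MET32 had 3.22 and 2.87 CPM in rox1/rox2 CoCl2, against 8.32 and 9.99 CPM in WT CoCl2 (-1.57 ± 0.31; adjusted p = 0.0109). HIS6 had 18.3 and 22.5 CPM in rox1/rox2 CoCl2, against 8.58 and 7.25 CPM in WT CoCl2 (1.35 ± 0.32; adjusted p = 0.0275). MET32 was lower and HIS6 higher in both strains that lack ROX1 than in WT with CoCl2, and no library of these groups overlapped. Only LYS4 was called without WT CoCl2 replicate 2 (MET32 adjusted p = 0.0884; HIS6 adjusted p = 0.21) or without rox1/rox2 CoCl2 replicate 2 (MET32 adjusted p = 0.105; HIS6 adjusted p = 0.137), and HIS6 was also lost without WT CoCl2 replicate 1 (adjusted p = 0.068). DESeq2 called 5 genes, adding MET4 and MET16.

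With CoCl2, rox2 differed from WT in 0 of the 59 genes by edgeR, against 3.57% of all tested genes called. At an unadjusted p under 0.05 there were 7 genes, and DESeq2 called LYS2, LYS4 and LYS14, all lower in rox2 CoCl2. LYS14 had 48.0 and 67.5 CPM in rox2 CoCl2, against 89.3 and 93.0 CPM in WT CoCl2 (-0.65 ± 0.17; adjusted p = 0.053), with no overlap. LYS4 had 92.2 and 141 CPM in rox2 CoCl2 and 185 and 219 CPM in WT CoCl2 (-0.79 ± 0.23; adjusted p = 0.0641). Without rox2 CoCl2 replicate 2, LYS4 (-1.13) and LYS14 (-0.93) were called.

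The size of the CoCl2 response itself was compared between each deletion strain and WT. In rox1 it differed for HIS6 and ARO9, against 4.71% of all tested genes called. HIS6 had 15.1 and 16.3 CPM in rox1 CoCl2 and 7.90 and 14.5 CPM in rox1, against 8.58 and 7.25 CPM in WT CoCl2 and 18.1, 18.8 and 20.3 CPM in WT, and the response in rox1 minus that in WT was 1.73 ± 0.42 on the log2 scale (adjusted p = 0.037). For ARO9 the difference was -2.50 ± 0.64 (adjusted p = 0.0426), and its levels without CoCl2 were already higher in rox1 (11.6 and 11.7 CPM) than in WT (5.08, 2.84 and 3.80 CPM), by an amount that did not pass the threshold (adjusted p = 0.3). For the rox1 strain 13 genes passed an unadjusted p under 0.05, MET32 next in order (-1.32 ± 0.41; adjusted p = 0.0744). Without any one of the 3 WT libraries, without rox1 replicate 1, without WT CoCl2 replicate 1 or without rox1 CoCl2 replicate 2, neither gene was called. Without WT CoCl2 replicate 2 HIS6 was not called (adjusted p = 0.0608), and without rox1 replicate 2 ARO9 was not called (adjusted p = 0.0562). Over the fits without 1 library HIS6 ranged from 1.40 to 2.25 and ARO9 from -2.84 to -2.03. With total counts neither was called (adjusted p = 0.0888 and 0.0752).

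The CoCl2 response in rox2 differed from that in WT for 0 genes by edgeR and by DESeq2, against 0.0902% of all tested genes, with 4 genes at an unadjusted p under 0.05. In rox1/rox2 it differed for 0 genes by edgeR, against 0.397% of all tested genes, with 8 at an unadjusted p under 0.05. DESeq2 called MET32 and MET13 there, and their edgeR values were -1.82 ± 0.42 (adjusted p = 0.0747) and -0.95 ± 0.27 (adjusted p = 0.117). For LYS4 the response in rox1/rox2 minus that in WT was -0.96 ± 0.31 (adjusted p = 0.153). The higher number of CoCl2 calls in WT and rox2 than in rox1 and rox1/rox2 was not itself tested, other than gene by gene here.

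Genes of the same pathways that do not carry these names were listed beside the 59. Of 46 listed symbols 35 had a row, 4 of them members already named. Calls of the listed genes outside the 59 are from the planned edgeR fit alone and were not followed through the alternatives. In hypoxia BAS1, an activator of histidine and purine genes, rose (0.22 ± 0.05; adjusted p = 0.0318), as did GDH2, the glutamate dehydrogenase gene of glutamate breakdown (0.59 ± 0.12; adjusted p = 0.0231), and none of the listed genes fell. Over all tested genes 2.64% rose and 3.85% fell in hypoxia. MUP3, a methionine permease gene, rose with CoCl2 in rox1 (1.24 ± 0.24; adjusted p = 0.00576), rox2 (2.38 ± 0.21; adjusted p = 2.36e-06), rox1/rox2 (1.08 ± 0.25; adjusted p = 0.0208) and WT (3.26 ± 0.21; adjusted p = 3.63e-07). Its response was smaller in rox1 (-2.02 ± 0.32; adjusted p = 0.00883) and rox1/rox2 (-2.18 ± 0.33; adjusted p = 0.0103) than in WT. GDH2 rose in rox2 (3.92 ± 0.45), rox1/rox2 (2.48 ± 0.51) and WT (4.78 ± 0.46) and missed the threshold in rox1 (1.68 ± 0.50, adjusted p = 0.0527). Its response was smaller in rox1 than in WT (-3.10 ± 0.67; adjusted p = 0.0281).

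Of the other sulfur genes, 3 of 6 rose with CoCl2 in WT and none fell: MUP3, SAM2, which encodes S-adenosylmethionine synthetase (0.77 ± 0.15), and SSU1, which encodes a sulfite pump (0.83 ± 0.21). Over all tested genes, 27.7% rose and 19.4% fell with CoCl2 in WT, and the counts in WT below stand against these shares. Of the 5 regulators outside the name rule, BAS1 (-0.81 ± 0.26), CBF1, which binds beside Met4 (-0.68 ± 0.20), and LEU3, the activator of leucine genes (-0.64 ± 0.21), fell in WT and GCN2, the kinase that senses uncharged tRNA, rose (0.56 ± 0.14); GCN4 was not called (-0.40 ± 0.28; adjusted p = 0.244). Of the 20 other amino acid genes, 4 rose in WT, namely GDH2, GLT1, SER3 and SER33, and 5 fell, namely SER2, SHM1, AAT2, PRO1 and PRO3. These 2 counts are near the shares over all tested genes (27.7% and 19.4%). In rox1 SAM2 (0.86 ± 0.17) rose besides MUP3, and no gene of these lists fell, against 4.85% of all tested genes that rose and 3.21% that fell. Among the 4 members whose enzymes carry iron-sulfur centres or sirohaem, LYS4, MET5 and MET10 rose in WT, LYS4 and MET10 in rox1, MET5 and MET10 in rox2 and MET10 in rox1/rox2, while ILV3 was not called in any strain (0.80 ± 0.28 in rox1, -0.25 ± 0.25 in rox2, 0.09 ± 0.28 in rox1/rox2 and 0.19 ± 0.25 in WT).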

How the data were processed

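The deposited files hold whole-number counts of reads per gene or exon, made by the authors with TopHat2 and HTSeq 0.6.0 per the submitters' processing notes. Neither the genome build nor how HTSeq treated strand is given in the sources used here. Both library preparations kept strand, per the labels' protocols; reads were 42 bp single-end in the deletion experiment and 90 bp paired-end in the oxygen experiment, and RNA came from either of 2 kits. The 5852 entries of the deletion files were summed to 5648 genes, and 5 counter entries per file were left out of totals. Symbols came from the RefSeq table by locus tag. No reads, genome or sequences were used here, and reads shared by near-identical genes could not be traced.

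Each experiment was fitted apart with edgeR 4.0.16 (R 4.3.3; TMM scaling, filterByExpr with a minimum count of 10, quasi-likelihood test), with all groups sharing one estimate of the spread, and p-values were adjusted by Benjamini-Hochberg over 5559 genes (oxygen) or 5544 genes (deletion) in each of 14 comparisons. The common dispersion had a square root of 0.068 (oxygen) and 0.199 (deletion), which sets how small a change could be called. The code was tested on simulated data. Alternatives were DESeq2 1.42.0, total-count scaling, no filter, a replicate block and leaving out each library; leaving out both rox2 libraries with the most reads outside genes, and a crossed block, were chosen after seeing the data. Hypoxia and normoxia libraries of the same number deviated together (correlations over genes of 0.176, 0.345 and 0.154, all above 0.1), so the numbers were taken to pair the libraries there, from the data and not the labels; the values reported are from the planned fit without the block, and blocked values stand beside those whose call they changed. No 2 libraries held identical counts.

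Text names every called gene where at most 12 were called and otherwise the 6 largest rises and falls, with further genes as needed to follow a pathway. The members, lists and tests were chosen with earlier results of these data known.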

Additional observations from a re-analysis of the deposited data

Results flagged for a closer look

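The CoCl2 response of 2 genes differed between the rox1 strain and WT in a test of the difference itself, against 4.71% of all tested genes. For HIS6 the response in rox1 minus that in WT was 1.73 on the log2 scale, with responses of 0.48 in rox1 and -1.26 in WT (edgeR adjusted p = 0.037). For ARO9 it was -2.50, with responses of 0.24 in rox1 and 2.75 in WT (edgeR adjusted p = 0.0426). Each lost its call in 7 of the 9 fits that left out 1 library. Neither was called with total counts, where the values were 1.62 for HIS6 and -2.60 for ARO9. Without CoCl2, rox1 already differed from WT by -0.75 ± 0.28 for HIS6 and 1.57 ± 0.44 for ARO9. Neither of these was called (edgeR adjusted p = 0.506 and 0.3). With CoCl2 the differences were 0.98 ± 0.31 for HIS6 and -0.93 ± 0.45 for ARO9 (edgeR adjusted p = 0.0451 and 0.16).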

How the results depend on the processing

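No called gene changed sign under any alternative. Called in every alternative run were 2 of the 9 genes in hypoxia, 4 of 8 with CoCl2 in rox1, 12 of 28 in rox2, 0 of 6 in rox1/rox2 and 13 of 32 in WT, and, with CoCl2 against WT, 0 of 9 in rox1 and 1 of 3 in rox1/rox2. Leaving out 1 library gave 3 to 10 calls in hypoxia, and with CoCl2 5 to 12 in rox1, 16 to 32 in rox2, 0 to 4 in rox1/rox2 and 16 to 36 in WT. Against WT without CoCl2 it gave 0 to 1 for rox1, 0 to 1 for rox2 and 0 for rox1/rox2; against WT with CoCl2 it gave 0 to 14 for rox1, 0 to 2 for rox2 and 1 to 4 for rox1/rox2. For the difference in CoCl2 response it gave 0 to 4 in rox1 and 0 in rox2 and rox1/rox2. DESeq2 called 14 genes for rox1, 3 for rox2 and 5 for rox1/rox2 against WT with CoCl2, and 5 (rox1) and 2 (rox1/rox2) for the difference in response. Total counts gave 1 (rox2) and 5 (rox1/rox2) against WT with CoCl2 and 0 for the difference in rox1. Leaving out both rox2 libraries with the most reads outside genes gave 1 call, LYS2, for rox2 against WT with CoCl2 and 1, HIS4, for the difference in response in rox2. The number of calls over all tested genes moved in these fits as well. The cause of these shifts was not tested.

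The replicate block gave 15 calls in hypoxia, and 741 in place of 361 over all 5559 genes. In the deletion experiment the samples shared only a number, with correlations of same-numbered libraries between -0.29 and 0.763. Against the WT CoCl2 libraries they were 0.273 in rox1 CoCl2, 0.763 in rox2 CoCl2 and 0.691 in rox1/rox2 CoCl2, all above 0.1. With 2 libraries in each CoCl2 group, 1 value stands for both pairs, and whether the numbers pair these libraries was not tested. The block gave 8 calls with CoCl2 in rox1, 30 in rox2, 8 in rox1/rox2 and 39 in WT. It gave 11 for rox1 against WT with CoCl2 and 3 for the difference in rox1, and changed no other count. It lost the calls of MET14 (adjusted p = 0.0543) and MET32 (adjusted p = 0.0985) with CoCl2 in rox2 and of MET31 for rox1 against WT with CoCl2 (adjusted p = 0.058). Crossed numbers in rox1 gave 8 calls, as against 8 without a block. With 2 or 3 libraries a group and counts as low as those of MET2, MET14 and MET28, smaller changes could not be called.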
